A study of Mus musculus with 6 samples.

Results

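The genes of sebocytes and of lipid synthesis were followed in hair follicle cells from newborn mouse skin, in Ring1a-/- Ring1b-/I53A mutants and in controls. The set holds 34 genes of the 24453 listed in the count files, and all 34 have a row. They were chosen on measured values: Pparg and Fa2h had been seen among the largest falls of the same comparison, and the others were added by function. Differences between these groups are therefore given for each gene, and no weight is placed on the set as a whole. The 3 mutant libraries came from skin epithelium lacking Ring1a, with a null allele of Ring1b over an allele carrying the I53A substitution, at postnatal day 0. The 3 control libraries came from day 0 skin whose genotype the labels give only as control. Ring1a and Ring1b are the ubiquitin ligases of Polycomb repressive complex 1, which marks histone H2A at silent developmental genes. The I53A substitution is known to weaken the ligase activity. No group separates the 3 alleles from each other, and neither the driver of any deletion nor pooling of animals is stated in the sources used here. The sorting text describes a gate for interfollicular epidermis, while every sample is labelled as hair follicle.

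Sebocytes are the lipid-filled cells of the sebaceous gland, which buds from the upper hair follicle around birth in the mouse. They mature under the nuclear receptor PPARγ, build fatty acids, elongate, desaturate and hydroxylate them, and store them as wax esters, sterol esters and triglycerides until the whole cell is shed as sebum. Keratinocytes outside the gland use many of the same enzymes to make membrane lipids and the ceramides of the skin barrier, so that only part of the set marks sebocytes.

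Library totals were 15661124 to 17278824 reads in the mutants and 14335156 to 18811587 reads in the controls. The 34 genes took 0.149% to 0.180% of the reads in the mutants and 0.129% to 0.188% in the controls. Levels are in CPM, counts scaled to TMM-adjusted library sizes, where 1 CPM was 14.7 to 18.2 reads. Ring1 was at 3.23, 7.10 and 4.88 CPM in mutants 1 to 3, against 16.8, 22.1 and 21.1 CPM in controls 1 to 3, a log2 fold change of -1.98 (SE 0.33, adjusted p = 0.0113). Rnf2, which encodes Ring1b, was at 64.6, 65.4 and 71.3 CPM in the mutants and at 55.9, 55.7 and 67.8 CPM in the controls, and gene counts do not show a substituted codon. Its exons overlap Trmt1l on the opposite strand. Keratinocyte markers were high in every library, with summed levels of 8 follicle epithelium genes of 12728 to 17741 CPM in the mutants and 11074 to 13826 CPM in the controls. Some markers of the mature sebaceous gland were at or near 0, and others were not. Within the set, Scd1 averaged 67.7 CPM in mutants and 72.4 CPM in controls, and Far2 averaged 7.06 and 19.2 CPM. Awat1, a wax ester synthase, had no read in any library, which allows up to 0.164 to 0.204 CPM per library, and Dgat2l6, a relative of it outside the set, was at or under 0.0568 CPM. Intervals and such limits cover counting error only, because amplified reads are not independent molecules. In bulk libraries, fewer cells of a type and less RNA per cell cannot be told apart.

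Of the 34 genes, 31 held enough reads to be tested, and Awat1, Elovl3 and Mc5r did not. Pparg and Fa2h fell, at an adjusted p under 0.05 over all 14345 genes tested by edgeR's quasi-likelihood test, and no member of the set rose. In the same comparison 2.59% of all genes rose and 0.404% fell. At an unadjusted p under 0.05 the set held 3 members up (Scd2, Ugcg and Dgat2) and 4 down (Pparg, Fa2h, Far2 and Mgst1), where 9.50% of all genes were up and 5.44% down. The groups did not overlap for 4 tested members that were higher in the mutants (Scd2, Cers4, Ugcg and Dgat2) and 4 that were lower (Pparg, Prdm1, Fa2h and Far2), where 12.1% and 9.15% of all tested genes did so. Log2 fold changes were above 0 for 13 of the 31 and below 0 for 18, with a median of -0.15 against 0.00 for all genes. The same replicate numbers in both groups go with shared deviations, and with the number as a block 3 members rose (Elovl1, Scd2 and Ugcg) and 4 fell (Pparg, Fa2h, Far2 and Mgst1). With that block 6.09% of all genes rose and 3.29% fell. DESeq2 called 2 members up (Scd2 and Ugcg) and 3 down (Pparg, Fa2h and Far2), where it called 5.15% of all genes up and 1.72% down. Because this comparison chose the set, these counts are a description only.

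**Figure D1:**
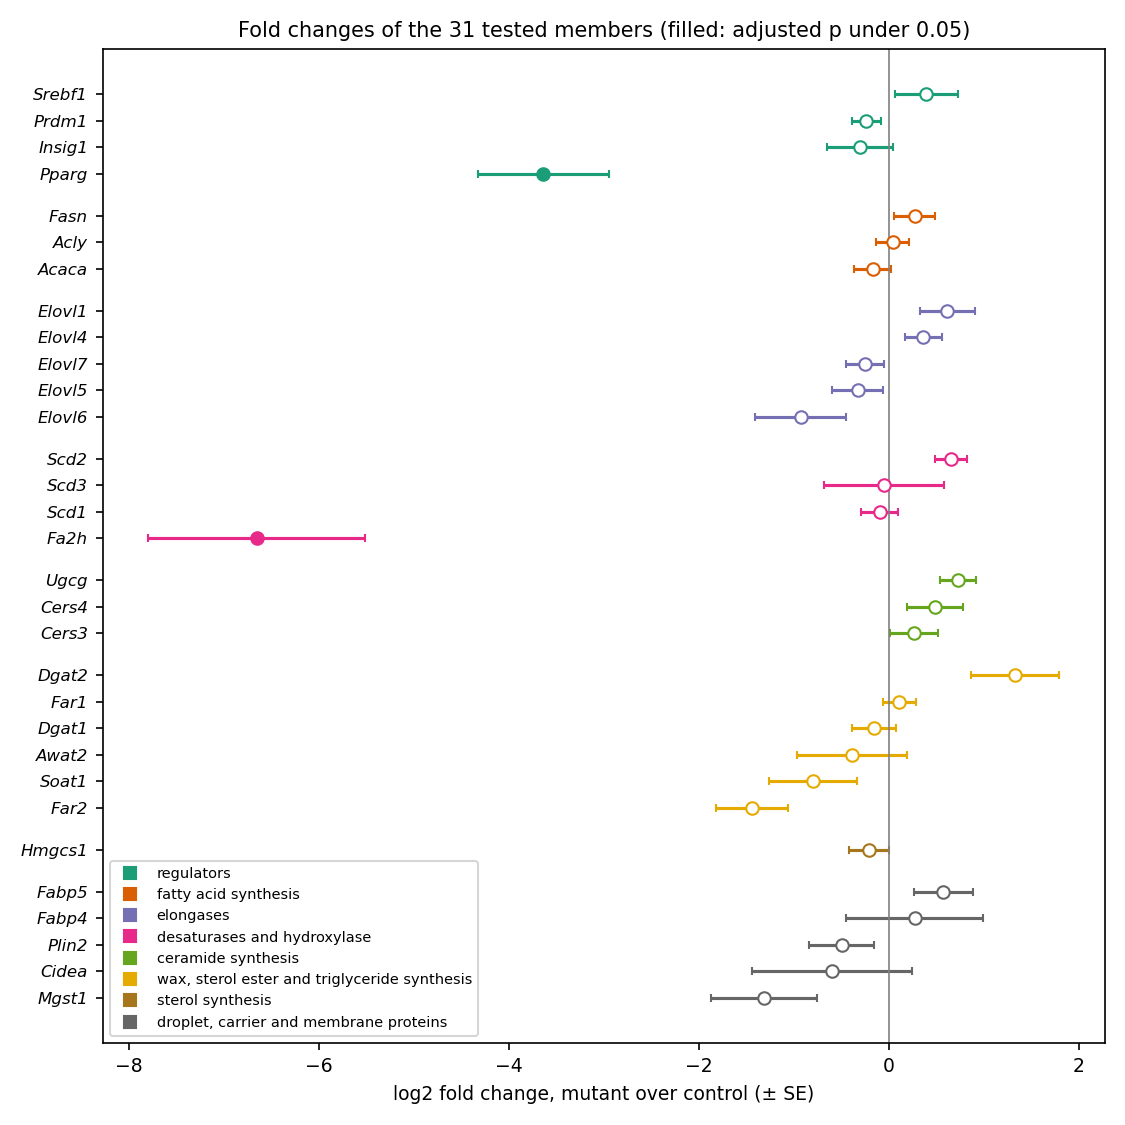
Log2 fold change, mutant over control, of the 31 tested genes of the set (x axis), grouped by role from top to bottom; points are estimates, bars their SE, and filled points passed an adjusted p under 0.05. Pparg at -3.63 and Fa2h at -6.65 stand far to the left, while the other 29 genes lie between -1.44 (Far2) and 1.33 (Dgat2); the Fa2h estimate rests on 3 mutant reads and depends on the prior count of the fit.

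Pparg, the nuclear receptor that drives sebocyte and fat cell differentiation (chr6:115360951-115490399, plus strand, GRCm38), was nearly lost from the mutants. Its levels were 0.164, 1.19 and 1.14 CPM in mutants 1 to 3 and 7.90, 17.1 and 5.90 CPM in controls 1 to 3, from 3, 20 and 17 reads against 116, 272 and 104 reads. Every mutant library lay below every control library, and control 2 stood above the other controls. The means were 0.831 ± 0.578 CPM in mutants and 10.3 ± 5.95 CPM in controls (SD, n = 3 each). The log2 fold change was -3.63 (SE 0.69, adjusted p = 0.0215). The call was lost without mutant 2 (adjusted p = 0.0684), without control 1 (0.0578), without control 2 (0.0803) and with limma-voom (0.0588). Over all 14 alternatives the adjusted p ran from 9.23e-07 to 0.0803 and the log2 fold change from -4.01 to -3.06.

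Pparg is transcribed from several starts, and counts per gene do not say which of them supplied the reads. The RefSeq table on GRCm38.p6 gives 3 promoter windows, each of 250 bases before and 50 after a start, and they are shown because they differ widely in CpG dinucleotides, the feature that often goes with Polycomb binding in mammals. CpG is in capitals, and all are on the plus strand. The first of these windows, chr6:115360894-115361193, is followed by the one at chr6:115362099-115362398. The last, at chr6:115421816-115422115, lies at the start of the PPARγ2 transcript known from fat cells.
Pparg window 1: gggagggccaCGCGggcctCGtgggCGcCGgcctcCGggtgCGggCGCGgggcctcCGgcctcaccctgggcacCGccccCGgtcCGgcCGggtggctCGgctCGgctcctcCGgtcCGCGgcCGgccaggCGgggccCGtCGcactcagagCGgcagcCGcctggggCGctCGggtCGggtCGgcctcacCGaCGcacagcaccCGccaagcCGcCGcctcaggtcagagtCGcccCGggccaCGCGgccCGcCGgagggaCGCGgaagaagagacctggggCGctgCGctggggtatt
Pparg window 2: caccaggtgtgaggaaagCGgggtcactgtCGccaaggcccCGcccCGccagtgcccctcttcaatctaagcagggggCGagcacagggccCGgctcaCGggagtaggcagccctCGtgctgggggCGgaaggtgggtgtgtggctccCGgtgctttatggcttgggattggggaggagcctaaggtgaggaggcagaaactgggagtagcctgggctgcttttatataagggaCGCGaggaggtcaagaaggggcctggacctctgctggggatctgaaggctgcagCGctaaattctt
Pparg window 3: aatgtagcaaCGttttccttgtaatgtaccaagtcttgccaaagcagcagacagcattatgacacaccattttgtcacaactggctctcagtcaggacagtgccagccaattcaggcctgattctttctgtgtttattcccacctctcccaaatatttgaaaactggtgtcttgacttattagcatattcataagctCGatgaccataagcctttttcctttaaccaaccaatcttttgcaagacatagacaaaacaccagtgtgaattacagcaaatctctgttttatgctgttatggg
The windows hold 44, 13 and 2 CpG, with observed over expected ratios of 0.910, 0.467 and 0.170. The median ratio was 0.384 over all 32851 windows of the table and 0.607 over the 31 windows of the 24 members that have one. A ratio of at least 0.6 with a G+C content of at least 50% was found in 16 of the members' 31 windows and in 33.5% of all windows.

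None of the other regulators that were tested was called, and Mc5r was too low to test. Prdm1, the repressor also called Blimp1 that marks cells of the sebaceous gland, was at 76.2, 77.0 and 81.8 CPM in the mutants and at 85.0, 88.6 and 103 CPM in the controls. The groups did not overlap, but the difference was small and was not called (log2 fold change -0.24, SE 0.16, adjusted p = 0.553). Srebf1, the transcription factor of fatty acid synthesis genes, was at 46.6, 40.8 and 68.9 CPM in the mutants and at 31.3, 25.7 and 61.8 CPM in the controls. In both groups library 3 was the highest, and the log2 fold change of 0.39 (SE 0.33, adjusted p = 0.667) was not called. Srebf1 shares exon bases with Rai1 on the opposite strand, and since no strand setting is known, reads of the pair cannot be told apart. Insig1, which holds SREBP proteins in the endoplasmic reticulum when sterols are plentiful, was at 15.1, 31.7 and 18.3 CPM in the mutants and at 29.9, 34.3 and 16.2 CPM in the controls. In both groups library 2 was the highest (log2 fold change -0.31, SE 0.34, adjusted p = 0.770). Mc5r, the melanocortin receptor of sebocytes, had 5, 6 and 6 reads in the mutants and 7, 27 and 8 reads in the controls, which is 0.274, 0.358 and 0.401 CPM against 0.477, 1.69 and 0.454 CPM. Every mutant lay below every control, but mutant 3 and control 3 were nearly level, with 6 and 8 reads, within counting error. The means were 0.344 ± 0.0646 CPM in mutants and 0.875 ± 0.710 CPM in controls (SD, n = 3 each), and control 2 held most of the control reads.

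Fa2h, which puts a hydroxyl group on the second carbon of fatty acids for sebum and barrier lipids (chr8:111345135-111393824, minus strand), was close to silent in the mutants. It had 0, 1 and 2 reads in mutants 1 to 3 and 66, 235 and 25 reads in controls 1 to 3. On the CPM scale this was 0, 0.0596 and 0.134 in the mutants and 4.50, 14.7 and 1.42 in the controls. The groups did not overlap, but the controls themselves spanned a 10.4-fold range, wider than in all but 4.44% of the tested genes. The ratio of pooled reads (3 in mutants, 326 in controls) over pooled library sizes was 0.00888 (exact 95% interval from the counts 0.00182 to 0.0262). That interval covers counting error only and leaves out the spread between the libraries. The edgeR adjusted p was 0.0136. The call was lost without mutant 1 (adjusted p = 0.0588), without mutant 2 (0.0731) and with limma-voom (0.128), within a range of 2.11e-07 to 0.128 over 14 alternatives. Without control 2 it was kept (adjusted p = 0.0481), with a fitted log2 fold change of -5.42 in place of -6.65.

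**Figure D2:**
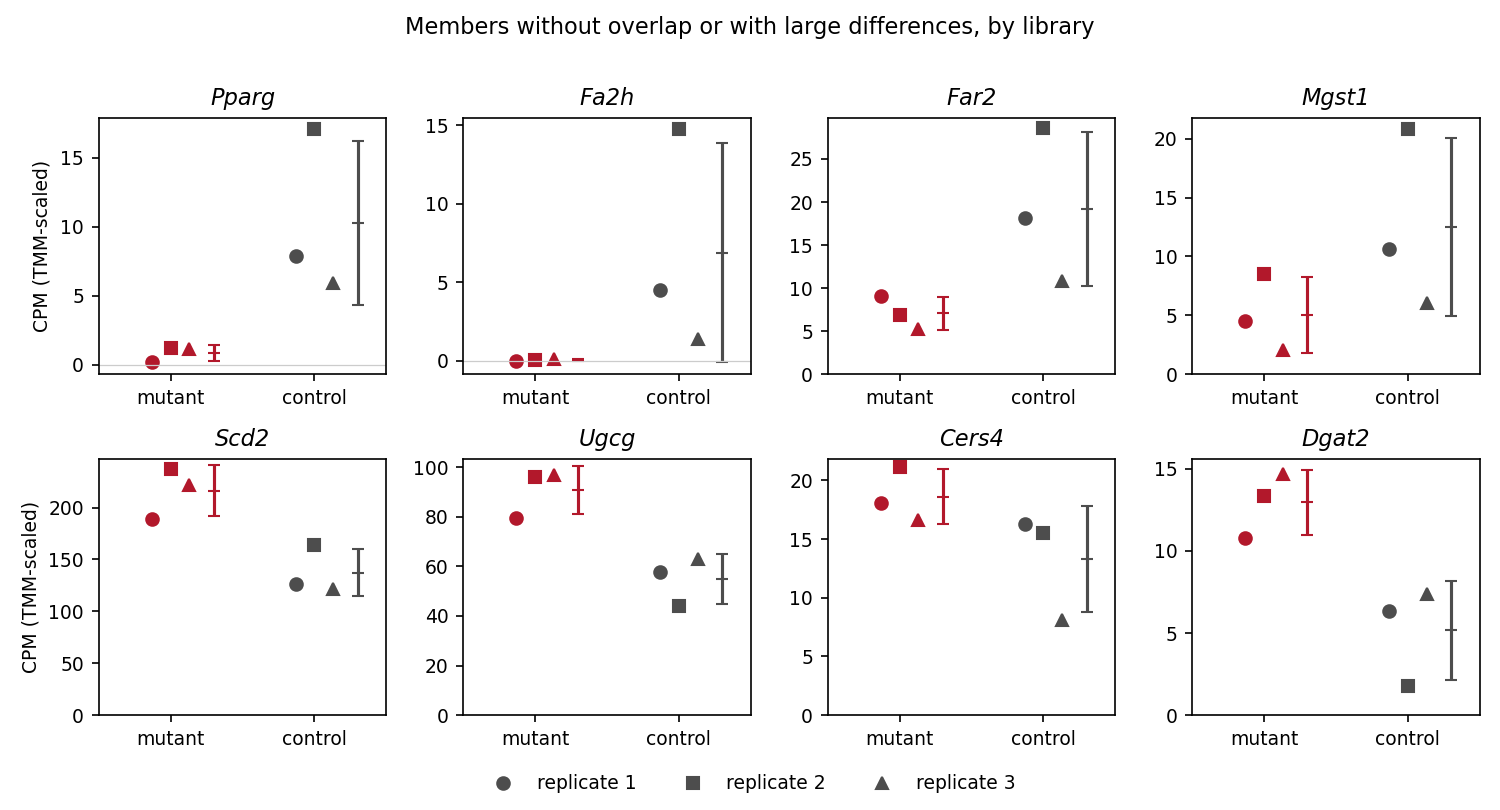
CPM (linear y axes) of 8 genes in each library, mutants in red on the left and controls in grey on the right; circles, squares and triangles are replicates 1, 2 and 3, and bars give the mean ± SD of n = 3. In the upper row (Pparg, Fa2h, Far2, Mgst1) control 2 is the highest library in each panel; in the lower row (Scd2, Ugcg, Cers4, Dgat2) every mutant lies above every control.

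The stearoyl-CoA desaturases, which make monounsaturated fatty acids, did not move together. Scd2, the form that prevails in newborn skin (chr19:44293674-44306864), was at 189, 237 and 222 CPM in the mutants and at 127, 163 and 122 CPM in the controls. All mutants were above all controls, with means of 216 ± 24.5 and 137 ± 22.9 CPM and a log2 fold change of 0.66 (SE 0.17). It missed the threshold (adjusted p = 0.0799) and passed with the replicate block (0.00653) and with DESeq2 (0.0239). Scd1, the form of adult sebocytes, was at 67.7 ± 14.03 CPM in mutants and 72.4 ± 7.22 CPM in controls (log2 fold change -0.10, SE 0.19, adjusted p = 0.883). Scd3 was near 1 CPM throughout, at 0.869 to 2.15 CPM in mutants and 1.09 to 1.76 CPM in controls. The genes of these enzymes lie side by side on chromosome 19 and are close in sequence, so reads may be split between them. On a scale of reads per exon length and depth (RPKM), Scd2 was at 39.5 in the mutants, above every other member there, with Acly next at 36.8, while in the controls Scd2 stood at 25.1, below Elovl7 at 35.9, Acly at 35.8 and Hmgcs1 at 31.7.

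The core of fatty acid synthesis was close to even between the groups. Acly, which supplies acetyl-CoA from citrate, was at 194 ± 32.7 CPM in mutants and 189 ± 24.9 CPM in controls (log2 fold change 0.04, SE 0.17). Acaca, which carboxylates acetyl-CoA, was at 37.9 ± 3.43 CPM in mutants and 42.6 ± 7.10 CPM in controls (-0.17, SE 0.20). Fasn, the fatty acid synthase, was at 180.3 ± 41.5 CPM in mutants and 149 ± 32.9 CPM in controls (0.27, SE 0.22). None of these 3 was called by edgeR, with or without the block, and their adjusted p lay between 0.637 and 0.952.

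The elongases, which lengthen fatty acids with malonyl-CoA as the donor, held no call among the 5 that were tested, and 1 rose with the block. Elovl6, which extends palmitate to stearate, was at 45.5, 72.0 and 61.6 CPM in the mutants and at 94.5, 208 and 38.3 CPM in the controls. The mutants lay inside the range of the controls, whose highest library was 5.43 times the lowest. Its log2 fold change was -0.93 (SE 0.48, adjusted p = 0.423), but -0.15 without control 2, and -1.33 without control 3, where it was called (adjusted p = 0.0328). Elovl1, which makes saturated very long chains, was at 37.6, 44.6 and 52.1 CPM in the mutants and at 21.1, 22.7 and 43.9 CPM in the controls. Control 3 was level with the mutants, and the log2 fold change of 0.61 (SE 0.29, adjusted p = 0.370) was called only with the block (0.0494) and without control 3 (1.04, adjusted p = 0.0295). Elovl1 overlaps exons of Cdc20 on the other strand, itself at 24.3 to 31.7 CPM in mutants and 23.2 to 33.8 CPM in controls. Elovl4, needed for the ultra-long acyl chains of barrier ceramides, was at 48.7 ± 8.55 CPM in mutants and 37.97 ± 2.77 CPM in controls. Elovl5, which extends polyunsaturated chains, was at 42.3 ± 11.2 CPM in mutants and 53.2 ± 14.2 CPM in controls, and Elovl7 was at 121 ± 21.7 CPM in mutants and 144 ± 30.4 CPM in controls. These 3 were not called. Elovl3, the elongase of sebocytes and brown fat, had 0, 1 and 5 reads in the mutants and 7, 17 and 0 reads in the controls, which is too few to test.

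The 3 ceramide enzymes of the set had log2 fold changes above 0, and none was called over all genes. In a wider list of 23 ceramide and barrier genes, 11 were below 0, with a median of 0.03. Ugcg, which adds glucose to ceramide (chr4:59189257-59222833), was at 79.7, 96.0 and 96.9 CPM in the mutants and at 57.8, 43.9 and 63.1 CPM in the controls. The groups did not overlap, with means of 90.9 ± 9.67 and 54.9 ± 9.95 CPM and a log2 fold change of 0.73 (SE 0.19, adjusted p = 0.0803). It passed with the replicate block (adjusted p = 0.0196), with DESeq2 (0.0194) and without control 3 (0.0432). Cers4, a ceramide synthase expressed in follicle and sebaceous cells, was at 18.1, 21.2 and 16.6 CPM in the mutants and at 16.3, 15.5 and 8.12 CPM in the controls. The lowest mutant and the highest control were nearly level, and the difference was not called (log2 fold change 0.49, SE 0.29, adjusted p = 0.509). Cers3, the synthase of ultra-long ceramides of the barrier, was at 33.0, 41.6 and 29.7 CPM in the mutants and at 37.0, 20.0 and 30.0 CPM in the controls (0.26, SE 0.25, adjusted p = 0.724).

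Among the enzymes that join fatty acids into stored lipids, a wax gene and a triglyceride gene stood at opposite ends. Far2, which reduces fatty acids to the alcohols of wax esters (chr6:148047259-148182758), was at 9.04, 6.92 and 5.21 CPM in the mutants and at 18.1, 28.6 and 10.8 CPM in the controls. The groups did not overlap, with means of 7.06 ± 1.92 and 19.2 ± 8.96 CPM and a log2 fold change of -1.44 (SE 0.38, adjusted p = 0.0822). It passed with the block (0.0170), with DESeq2 (0.00653), with no filter (0.0302) and without control 3 (0.0155), and its adjusted p reached 0.252 without mutant 2. Far2 shares exon bases with Ergic2 on the opposite strand, which was at 32.4 to 43.8 CPM in mutants and 27.2 to 44.0 CPM in controls. Far1, the broadly expressed form, was at 85.4 ± 6.31 CPM in mutants and 79.1 ± 12.2 CPM in controls, and it overlaps Far1os. Dgat2, which makes triglycerides (chr7:99153658-99182719), was at 10.8, 13.4 and 14.7 CPM in the mutants and at 6.34, 1.76 and 7.38 CPM in the controls. Every mutant was above every control, but control 2 was far below the other controls. The log2 fold change of 1.33 (SE 0.47) was not called (adjusted p = 0.199, and 0.0595 with the block), and it was 0.91 without control 2. Dgat1, which makes the same lipid with another protein fold, was at 29.2 ± 1.90 CPM in mutants and 32.5 ± 8.60 CPM in controls. Soat1, which esterifies sterols, was at 9.81, 11.03 and 10.4 CPM in the mutants and at 17.0, 30.9 and 6.41 CPM in the controls. The mutants agreed closely while the controls spanned a 4.82-fold range, and the log2 fold change was -0.80 (SE 0.46, adjusted p = 0.483), or -0.17 without control 2. Awat2, a wax synthase, was at 1.604 to 2.52 CPM in mutants and 1.19 to 3.41 CPM in controls.

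The genes of droplet, carrier and membrane proteins held no call over all genes, and 1 fell with the block. Mgst1, a membrane-bound glutathione transferase abundant in sebaceous glands, was at 4.50, 8.47 and 2.07 CPM in the mutants and at 10.6, 20.8 and 6.02 CPM in the controls. Mutant 2 lay above control 3, and the log2 fold change of -1.31 (SE 0.56, adjusted p = 0.310) was called only with the block (adjusted p = 0.0170). It was -1.92 without mutant 2 and -0.73 without control 2. Within each replicate number the mutant was the lower library. Plin2, the coat protein of lipid droplets, was at 12.0, 11.7 and 5.35 CPM in the mutants and at 13.4, 16.1 and 11.6 CPM in the controls (-0.50, SE 0.34, adjusted p = 0.569). Fabp5, the fatty acid carrier of keratinocytes, was at 31.8 ± 9.87 CPM in mutants and 21.4 ± 7.25 CPM in controls (0.57, SE 0.31, adjusted p = 0.451). Fabp4, the carrier of fat cells, capillaries and macrophages, was at 1.53, 7.63 and 2.34 CPM in the mutants and at 3.27, 1.07 and 5.17 CPM in the controls. Neither group was above the other, and the highest library was mutant 2. Cidea, which fuses lipid droplets, was at 0.239 to 1.47 CPM in mutants and 0.681 to 1.44 CPM in controls.

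For some members the control libraries lay far apart. The highest control was at least 3 times the lowest for 6 of the 31 tested members (Elovl6, Fa2h, Soat1, Dgat2, Fabp4 and Mgst1), where 15.9% of all tested genes were. The median ratio of highest to lowest control was 1.85 for the members and 1.56 for all genes. Among the mutants these medians were 1.51 and 1.49, and the control ratio was above the mutant ratio for 21 of 31 members, against 56.4% of all genes. Control 2 was the highest control for 19 of the 31 members, where 34.9% of all genes were highest there, and control 3 was the lowest for 17, against 37.4% of all genes. In 6 members (Pparg, Elovl6, Fa2h, Far2, Soat1 and Mgst1) control 2 was at least 1.5 times the next control, as in 7.35% of all genes. Control 3 stood apart in the same way for Srebf1, Elovl1 and Fabp4, as in 9.63% of all genes, and control 1 for none. Genes that share a control library are not independent of each other, so these counts describe the libraries.

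**Figure D3:**
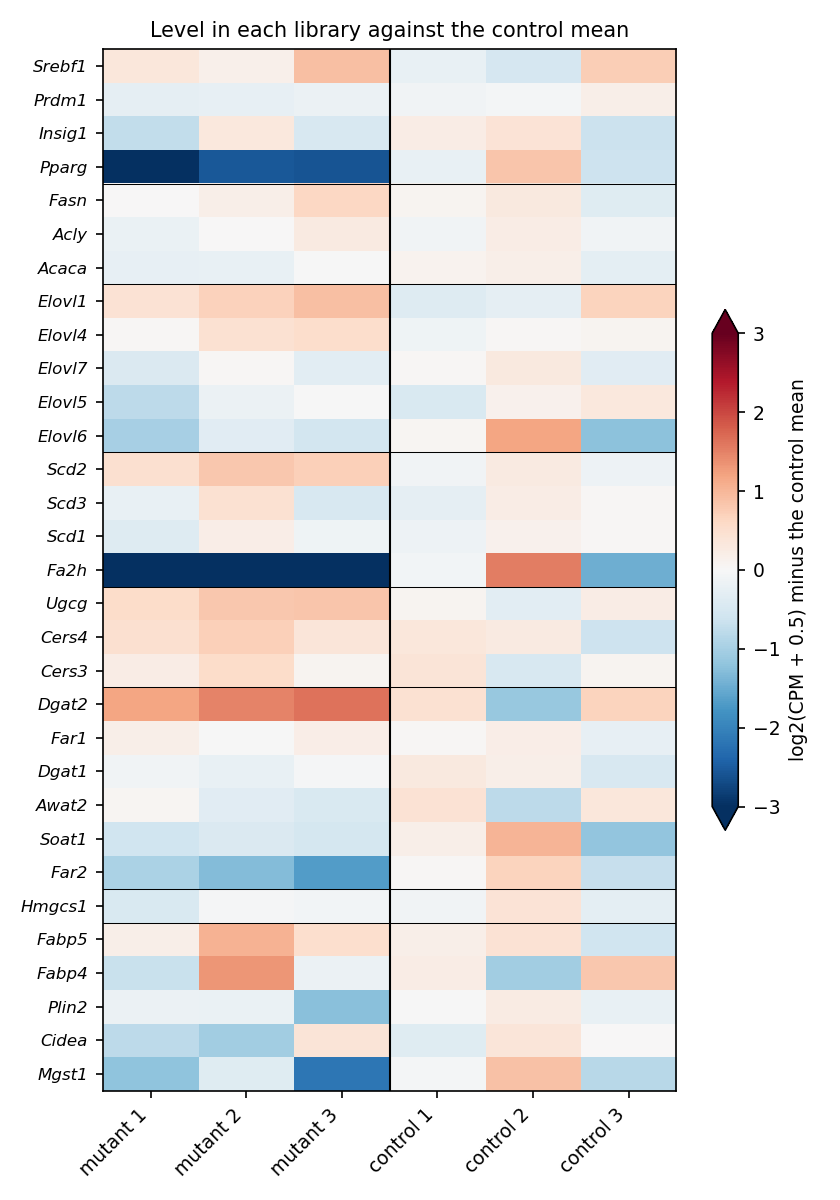
Heat map of the 31 tested genes (rows, grouped by role) in each library (columns, mutants left of the line, controls right of it), coloured by log2(CPM + 0.5) minus the mean of the 3 controls, with colours held at -3 and 3. Control 2 is red and control 3 blue for Pparg, Elovl6, Fa2h, Far2, Soat1 and Mgst1; Pparg and Fa2h are dark blue in the 3 mutants.

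The sterol arm showed the same order of control libraries. Hmgcs1, which makes the HMG-CoA of the mevalonate pathway and is the only sterol synthesis enzyme of the set, was at 104, 139 and 134 CPM in the mutants and at 132, 188 and 116 CPM in the controls. Control 2 was the highest of the 6 libraries (log2 fold change -0.21, SE 0.21, adjusted p = 0.730). Its promoter window (chr13:119690101-119690400, plus strand, GRCm38.p6) is shown because it was the only one of the members' 31 windows with the sterol regulatory element TCACNCCAC, searched on both strands and present in 1.24% of all windows. The element is in capitals.
Hmgcs1 window: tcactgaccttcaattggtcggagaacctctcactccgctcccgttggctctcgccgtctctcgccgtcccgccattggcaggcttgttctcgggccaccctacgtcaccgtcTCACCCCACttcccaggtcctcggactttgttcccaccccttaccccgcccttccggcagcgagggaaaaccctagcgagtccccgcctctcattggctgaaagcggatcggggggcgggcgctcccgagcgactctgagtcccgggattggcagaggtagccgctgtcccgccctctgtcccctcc
The nuclear receptor repeat AGGTCANAGGTCA, which PPARγ can bind with its partner RXR, was in none of the 31 windows and in 0.0396% of all windows. Its half-site AGGTCA alone, which the repeat contains, was in 9 of the 31, windows 1 and 2 of Pparg among them, and in 16.3% of all windows. A match of letters is no evidence of binding.

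Of 19 other cholesterol synthesis genes, all tested, none was called by edgeR, with or without the block, or by DESeq2. Their median log2 fold change was -0.26, with 14 below 0, against 50.3% of all genes. At an unadjusted p under 0.05, 1 was down, as were 5.44% of all genes. Cyp51, the sterol demethylase, was that gene, at 55.6, 81.0 and 57.8 CPM in the mutants and at 114, 166 and 59.1 CPM in the controls (log2 fold change -0.80, SE 0.33, adjusted p = 0.284). Sqle, the squalene epoxidase, was at 89.8, 153 and 182 CPM in the mutants and at 99.7, 184 and 72.4 CPM in the controls. Summed over the 19 genes, levels were 510, 737 and 698 CPM in the mutants and 711, 1061 and 447 CPM in the controls. Control 2 was the highest control for 15 of the 19 and control 3 the lowest for 17. In the sums every mutant lay between control 3 and control 2. Single genes departed from this, such as Cyp51, where mutants 1 and 3 lay below control 3.

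**Figure D4:**
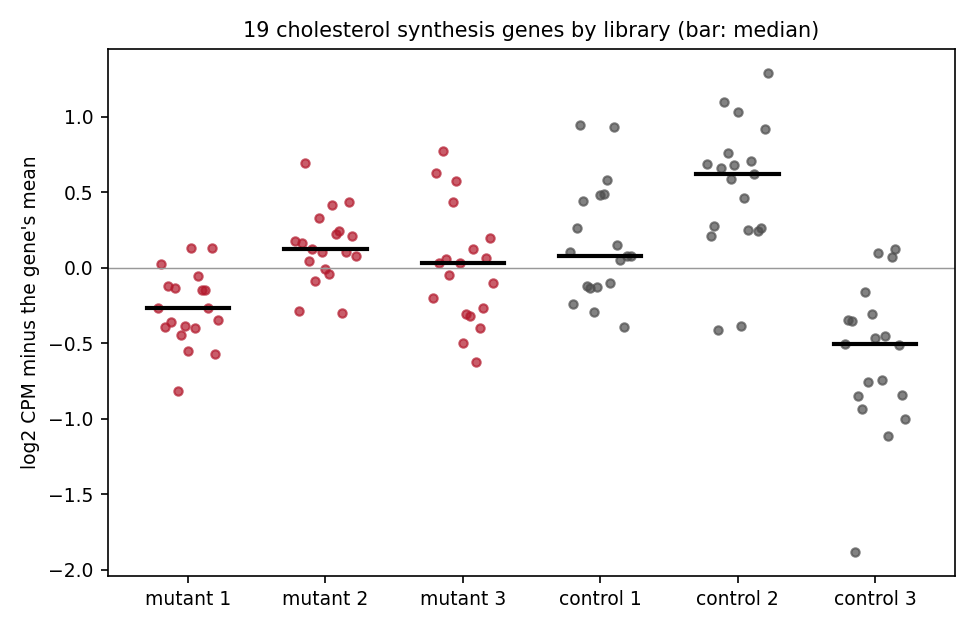
Log2 CPM of 19 cholesterol synthesis genes minus each gene's mean over the 6 libraries (y axis) by library (x axis), with a point per gene and a bar at the median. The medians are -0.27, 0.13 and 0.03 in mutants 1 to 3 and 0.08, 0.62 and -0.50 in controls 1 to 3.

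Other regulators of lipid genes were read beside Pparg. Over all genes, 2.59% rose and 0.404% fell by edgeR, 6.09% and 3.29% did so with the block, and 5.15% and 1.72% with DESeq2. At an unadjusted p under 0.05, 9.50% of all genes were up and 5.44% down. Of 17 tested PPAR partners and adipogenic regulators, 1 rose and none fell, with a median of -0.12. With the block 2 rose and 1 fell, and DESeq2 called 2 up and none down, while 2 up and none down had an unadjusted p under 0.05. The risen gene, Ppargc1a, a coactivator of nuclear receptors in energy metabolism, was at 10.5, 10.7 and 8.56 CPM in the mutants and at 2.73, 3.51 and 3.29 CPM in the controls (log2 fold change 1.64, SE 0.32, adjusted p = 0.0255). Zfp423, a factor of preadipocytes, was at 1.10, 6.32 and 1.54 CPM in the mutants and at 0, 0.565 and 0.170 CPM in the controls (adjusted p = 0.141, and 0.0271 with the block). The other PPAR receptors were not called. Ppara was at 9.66 ± 2.85 CPM in mutants and 6.06 ± 1.29 CPM in controls, and Ppard, the main form in keratinocytes, at 90.4 ± 27.7 CPM in mutants and 79.8 ± 14.3 CPM in controls. Rxra, the partner receptor, was at 673 ± 90.9 CPM in mutants and 661 ± 140.4 CPM in controls.

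Of 12 further sebocyte markers, 8 were tested, and 2 rose and none fell, where 2.59% of all genes rose and 0.404% fell. Their median log2 fold change was 0.81, against 0.00 for all genes, with 3 below 0. Mlxipl, the sugar-sensing factor also called ChREBP, was at 16.6, 18.1 and 15.3 CPM in the mutants and at 4.91, 2.51 and 2.84 CPM in the controls (log2 fold change 2.29, SE 0.33, adjusted p = 0.00630). Krt79, a keratin of the sebaceous duct and upper follicle, was at 128, 189 and 322 CPM in the mutants and at 92.1, 119.9 and 65.6 CPM in the controls. Krt79 is also counted in the upper follicle list. Its groups did not overlap, and it missed the threshold (adjusted p = 0.0919) but passed with the block (0.0476). DESeq2 called 3 of these genes up, where it called 5.15% of all genes up. The tested markers below 0 were not called: Aldh3b2 was at 24.2 to 38.2 CPM in mutants and 30.5 to 41.5 CPM in controls, Apoc1 at 13.2 to 22.5 CPM in mutants and 19.7 to 22.9 CPM in controls, and Cidec at 0 to 2.39 CPM in mutants and 0.941 to 1.91 CPM in controls. Cyp4f18, Gal, Plin5 and Dgat2l6 had too few reads to test. Cyp4f18 had 4, 1 and 0 reads in the mutants and 5, 34 and 7 reads in the controls. Its groups did not overlap, but 4 against 5 reads is within counting error. Gal had 2, 1 and 11 reads in the mutants and 3, 30 and 10 reads in the controls.

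The remaining lipid lists held no call by edgeR. Over all genes, 9.50% were up and 5.44% down at an unadjusted p under 0.05. With the block 6.09% of all genes rose and 3.29% fell, and with DESeq2 5.15% rose and 1.72% fell. The counts below are to be read against these shares. Of 15 tested genes of fatty acid uptake and activation, 4 were up and none down at an unadjusted p under 0.05, and 2 rose with the block and 2 with DESeq2. Fads1 and Fads2, the desaturases of polyunsaturated fatty acids, were those with the smallest p. Both were higher without overlap, as were 12.1% of all tested genes. Fads2 was at 8.61, 6.98 and 4.75 CPM in the mutants and at 2.73, 2.26 and 2.10 CPM in the controls (log2 fold change 1.52, SE 0.40, adjusted p = 0.0837, and 0.0427 with the block). Fads1 was at 44.2, 51.7 and 29.5 CPM in the mutants and at 15.8, 28.1 and 19.3 CPM in the controls (0.99, SE 0.28, adjusted p = 0.106, and 0.0163 with the block). Of 23 ceramide and barrier genes, 3 were up and 1 down at an unadjusted p under 0.05, and 1 rose and 1 fell both with the block and with DESeq2. Cers6, another ceramide synthase, was at 176, 178 and 176 CPM in the mutants and at 253, 268 and 265 CPM in the controls (-0.57, SE 0.13, adjusted p = 0.0519, and 0.00673 with the block). Sptlc3, a subunit of the first enzyme of ceramide synthesis, was at 47.4 ± 9.26 CPM in mutants and 27.7 ± 7.55 CPM in controls (0.78, SE 0.24, adjusted p = 0.147, and 0.0138 with the block). Among 21 glycerolipid genes that were tested, 2 rose with the block and none with DESeq2, and 1 was up at an unadjusted p under 0.05. That gene, Pnpla2, the lipase that opens stored triglyceride, was at 24.1, 43.6 and 48.1 CPM in the mutants and at 16.7, 12.0 and 27.1 CPM in the controls (1.05, SE 0.34, adjusted p = 0.164, and 0.0311 with the block). Among 14 tested sterol sensing and uptake genes, 1 rose with the block, none with DESeq2, and 1 was up at an unadjusted p under 0.05. That gene, Abcg1, a sterol exporter, was at 11.2, 4.95 and 12.9 CPM in the mutants and at 0.954, 0.628 and 5.96 CPM in the controls (adjusted p = 0.264, and 0.0197 with the block). Among 17 tested genes of fatty acid oxidation, none was called with the block or with DESeq2, and 2 were up at an unadjusted p under 0.05. Medians of these 5 lists lay between -0.07 and 0.21.

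Markers of other cells that express Pparg or Fabp4 had reads in every library. For scale, Pparg averaged 0.831 CPM in mutants and 10.3 CPM in controls, and Fabp4 averaged 3.84 and 3.17 CPM. The 9 adipocyte markers summed to 5.04, 12.8 and 10.4 CPM in the mutants and to 5.66, 10.7 and 10.8 CPM in the controls, and the defining gene Adipoq was at 0.493 to 2.33 CPM in mutants and 0.251 to 1.42 CPM in controls. Lep had no read in the mutants and 1 read in the controls. None of the 5 that were tested was called by edgeR, with or without the block, or by DESeq2, or had an unadjusted p under 0.05. The list shares Cidec with the sebocyte list and Plin1, Cidec and Lipe with the glycerolipid list. The 8 macrophage and myeloid markers summed to 29.3, 32.6 and 30.2 CPM in the mutants and to 50.2, 55.7 and 48.4 CPM in the controls, without overlap. All 4 that were tested had a log2 fold change below 0, as did 50.3% of all genes, and none was called by edgeR. Cd68, the member with most reads and not limited to macrophages, fell with the block (adjusted p = 0.145, and 0.0190 with the block). With DESeq2 1 fell. Of all genes, 3.29% fell with the block and 1.72% with DESeq2. The defining gene Adgre1 was at or under 0.239 CPM in the mutants and 0.908 CPM in the controls. The 8 endothelial markers summed to 15.1 to 31.6 CPM in mutants and 12.8 to 16.7 CPM in controls, with none of 4 tested called by edgeR, DESeq2 or the block, or under an unadjusted p of 0.05. None of those 4 had a log2 fold change below 0, and their median was 0.25. The part of these cells in the levels of Pparg and Fabp4 was not tested.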

How the data were processed

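Gene expression was read from 6 libraries of sorted follicle cells, 3 mutant and 3 control. The deposited files hold raw counts per gene symbol, not normalized, as the values show. The submitters' processing notes name build mm10 and the tools HTSeq 0.6.1, TopHat2 2.0.13, DESeq2 1.6.3 and Cufflinks 2.2.1, without role or order. No source used here states the strand setting or the release of the annotation. Per the labels' protocols, RNA was amplified with a low-input kit before library construction.

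Counts were tested with edgeR 4.0.16 in R 4.3.3 (quasi-likelihood test, TMM factors, filterByExpr, group as the only term, two-sided, Benjamini-Hochberg over 14345 genes, threshold 0.05). The filter removed 0.0971% of reads. The SE is the log2 fold change divided by the square root of F, and levels are mean ± SD with n = 3. Alternatives used limma 3.58.1, DESeq2 1.42.0, other scalings and filters, a replicate block and each library left out. Library totals had a two-sided p of 1 in an exact permutation test between the groups, which can reach 0.1 at the smallest. The chi-square per degree of freedom between libraries was at least 25.2 for all 15 pairs, so none was a duplicate. No label says whether replicates are separate animals, so p-values measure the spread between these samples, which may be technical. The labels do not say what a replicate number marks either. Deviations of same-numbered libraries correlated at 0.168 to 0.363, past the minimum of 0.1 set here. Those of other mutant and control pairs correlated at -0.252 to 0.0891. With 3 libraries per group these correlations cannot settle whether the numbers pair the samples. The block was therefore given as an alternative, and the main test did not use it. On simulated counts for this comparison over 14345 genes, with 200 genes changed 4-fold, 69.5% of the changed genes were called, and 4.79% of calls were unchanged genes.

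The members and lists were chosen with earlier results of these data known. Named with every library's value are called members, those without overlap and a log2 fold change of at least 1 in size, Pparg, Srebf1, Insig1 and Prdm1, and those with a control range of at least 3-fold. Others were given so where useful, chosen after their values were seen. From the lists up to 4 genes were named, called ones first, then by smallest p. A gene of the lists is not reported here. Ppara, Ppard, Rxra, Sqle, Adipoq, Lep, Adgre1 and Dgat2l6 were added for their roles. Coordinates and exon lengths are from GENCODE M21 (GRCm38), the same assembly as mm10, and promoter windows from RefSeq (GRCm38.p6). Of the members 24 matched a window and Fa2h, Scd1, Scd2, Elovl3, Mc5r, Cidea, Dgat1, Dgat2, Fabp4 and Fabp5 did not. Protein sequences planned for comparison were not used here.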

Additional observations from a re-analysis of the deposited data

How the results depend on the processing

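Pparg and Fa2h kept their direction in all 14 alternatives, which was all but fixed beforehand because their groups do not overlap. Their calls were kept in 10 and 11 of the 14. The members called down numbered 2, with 2 under DESeq2-type, upper-quartile or no scaling factors and under the stricter filter, 3 with no filter and with DESeq2, 4 with the replicate block and 0 with limma-voom. They ranged from 0 to 4 when a library was left out (0 without mutant 2, 1 without mutant 1, control 1 or control 2, and 4 without control 3). The members called up numbered 0, with 2 under DESeq2, 3 under the replicate block and 0 to 2 with a library left out. No called member or newly called member changed sign in any of these fits. All genes called up numbered 372, or 739 with DESeq2, 873 with the replicate block and 143 to 554 with a library left out. All genes called down numbered 58, or 247 with DESeq2, 109 with no filter, 472 with the replicate block and 19 to 110 with a library left out. In the lists outside the set, 4 genes were called up, or 10 with DESeq2, 7 with no filter, 15 with the replicate block and 1 to 8 with a library left out. There 1 gene was called down, or 2 with upper-quartile factors or limma-voom, 3 with DESeq2, 5 with the replicate block and 0 to 3 with a library left out. The replicate block changed no call of a member other than those given with the results. The number of members with a 3-fold control range was 6, and 7 on library totals alone. The cause of these moves was not tested. Scaling moved the median log2 fold change of all genes by under 0.1. Members with means under 1 CPM in both groups (Mc5r, Elovl3, Awat1) are limited by depth. So are the mutant levels of Pparg, Fa2h and Cidea, whose mutant means were under 1 CPM.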

Other observations

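Genes of the upper follicle, where the sebaceous gland arises, were also read. Of 9 tested, 1 fell and none rose by edgeR, where 0.404% of all genes fell and 2.59% rose. With the block 2 rose and 1 fell, against 6.09% and 3.29% of all genes. DESeq2 gave the same numbers for the list, against 5.15% and 1.72% of all genes. At an unadjusted p under 0.05, 2 were up and 1 down, against 9.50% and 5.44% of all genes. Lrig1, which marks stem cells of the junctional zone that feed the gland, was at 135, 146 and 141 CPM in the mutants and at 241, 239 and 247 CPM in the controls (log2 fold change -0.78, SE 0.13, edgeR adjusted p = 0.0135). Unlike Pparg, Lrig1 had close replicates in both groups. Krt17 was at 278, 325 and 442 CPM in the mutants and at 196, 194 and 235 CPM in the controls (0.74, SE 0.19, adjusted p = 0.0766, and 0.00366 with the block).

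Among 8 dermal fibroblast markers 1 rose, also with the block and with DESeq2, where 2.59%, 6.09% and 5.15% of all genes rose. Fbn1, a microfibril protein, was at 91.1, 95.0 and 75.3 CPM in the mutants and at 22.0, 13.7 and 36.7 CPM in the controls (log2 fold change 1.85, SE 0.32, adjusted p = 0.0137). The whole list summed to 759, 1027 and 732 CPM in the mutants and to 615, 636 and 1064 CPM in the controls, so the groups overlapped. The 8 melanocyte markers summed to 28.0 to 63.4 CPM in mutants and 27.7 to 50.6 CPM in controls, with none of 6 tested called by edgeR, DESeq2 or the block, or under an unadjusted p of 0.05. Of 7 tested suprabasal markers none was called by edgeR or DESeq2. With the block 1 rose and 1 fell, against 6.09% and 3.29% of all genes. At an unadjusted p under 0.05, 1 was up and 2 were down, against 9.50% and 5.44% of all genes. The suprabasal markers summed to 2614 to 4296 CPM in mutants and 4062 to 5545 CPM in controls. Of 8 follicle epithelium markers none was called by edgeR. There 2 rose with the block and 1 with DESeq2, against 6.09% and 5.15% of all genes. At an unadjusted p under 0.05, 1 was up and 1 down. The part of these cells in the results on the lipid genes was not tested.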
